A study of Mus musculus with 9 samples.

Results

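The genes described here are those of Wnt signalling: ligands, receptors, secreted and intracellular inhibitors, and the TCF/LEF factors and feedback targets at its end. They were taken from the count table by gene symbol alone, as every Wnt, Fzd, Sfrp, Dkk, Rspo and Lgr4 to Lgr6 gene plus a set of co-receptors, inhibitors and transcription factors. The rule found 63 of 55487 genes, of which 62 code for protein and 1, Fzd10os, is an RNA transcribed opposite Fzd10.

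Poly(A) RNA had been sequenced from PT-22, a cell line labelled as mouse proximal tubule of the kidney, with the genotype Pax2-/-, Pax8 fl/fl, Rosa-CreERT2, in which Cre acts once 4-hydroxytamoxifen is present. All 9 libraries, controls included, share that genotype and carry Pax8 in the inducible vector pTRIPZ. They form 3 groups of 3. The day 0 group was untreated, the day 6 group had received 1 uM 4-hydroxytamoxifen, meant to remove Pax8, and the day 12 group had then also received 1 ug/ml doxycycline, meant to bring Pax8 back. The labels give 2 days of 4-hydroxytamoxifen in one place and 6 days in another. They name neither a clone nor separate cultures, so the spread behind each p-value is that of libraries and could be technical only.

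Libraries held 56398623 to 86767334 counts. Pax8 counts did not fall at day 6: TMM-normalised read counts scaled to library size (CPM) were 289 to 292 at day 0, 399 to 411 at day 6 and 487 to 503 at day 12. A whole-gene count cannot check a deletion whose exons are not named, and it may also hold vector-borne reads, so groups are named by day and treatment. Pax2, labelled as lost in all groups, was counted at 30.4 to 34.6, 43.4 to 49.6 and 48.6 to 54.5 CPM, and the labels do not say which exons were removed. Time, drugs and Pax8 cannot be told apart. Of 14 proximal tubule markers 6 passed the low-count filter, among them Lrp2 and Aqp1, whereas Slc34a1, Slc5a12 and Slc22a6 had no counts in any library. The mitochondrial share of counts was 6.66% to 6.94% at day 0, 7.04% to 7.18% at day 6 and 2.1% to 3.96% at day 12, where replicate B was highest. By TPM, which corrects for gene length, the mitochondrial share was 20.4% to 21.7%, 19.9% to 20.3% and 11.4% to 15.0%. Its part in the day 12 values was not tested, but values on TPM rescaled without mitochondrial genes are given below.

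As background, Wnt proteins are secreted lipid-modified ligands that bind Frizzled receptors together with the co-receptors LRP5 and LRP6. Binding disables a complex around Axin, APC and GSK3 that destroys beta-catenin, and beta-catenin then turns on genes with TCF/LEF factors. Several of those genes, such as Axin2, Rnf43, Znrf3, Nkd1, Notum and Apcdd1, encode inhibitors of the pathway, which makes them readouts as well as brakes. In kidney, Wnt9b and Wnt4 drive the formation of nephrons, and Wnt genes are known to come back on in injured tubules.

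A gene passed the low-count filter, set at about 10 counts in at least 3 libraries, in 41 of 63 cases. Of the other 22, 9 had no count in any library: Wnt2, Wnt3a, Wnt5a, Fzd10, Fzd10os, Ror2, Rspo2, Dkk1 and Dkk4. A count of 0 allows up to 3 counts, or 0.0358 to 0.0516 CPM in these libraries, for counting error only. The remaining 13, Wnt3, Wnt8a, Wnt8b, Wnt9b, Fzd9, Rspo1, Rspo3, Rspo4, Sfrp1, Sfrp2, Sfrp5, Dkk2 and Wif1, reached at most 13 counts in a library. By role, 12 of 19 ligand, 8 of 10 Frizzled and all 4 TCF/LEF genes passed, but no R-spondin and, of the Dickkopf genes, Dkk3 alone. Lgr5, Notum, Nkd1 and Wnt1 passed through later days only, since no day 0 library reached the filter's 0.143 CPM, so their place among the genes tested already depends on their being higher there. Axin2, Fzd5, Fzd6, Lef1, Notum, Tcf7l1, Wnt11 and Wnt7b share exon bases with a transcript on the other strand, and since the strand setting is not given in the sources used here, their reads cannot be told apart.

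At day 6, 25 of the 41 genes rose and 8 fell (adjusted p under 0.05, edgeR), 15 and 2 of them at least 2-fold. The 15 include Lgr5, Notum and Nkd1, which passed the filter through later days only. The background was high. Of all 16353 genes tested 64.9% were called, with 33.5% risen and 31.4% fallen, and 9.66% rose and 4.65% fell at least 2-fold, against 80.5% called, 61% risen, 19.5% fallen and 36.6% risen at least 2-fold here. In 25 genes every day 6 library lay above every day 0 library and in 8 below, which held for 35.5% and 33.4% of all genes. The median log2 fold change was 0.54, beside 0.02 for all genes.

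Between day 6 and day 12, 9 genes rose and 14 fell, with a background of 45.3% called, 22.6% risen and 22.7% fallen, and the median was −0.02. A rise of at least 2-fold was seen in 3 genes and such a fall in none, beside 2.28% and 1.99% of all genes. Libraries lay apart in 13 genes upward and 15 downward, beside 27.7% and 26.3%. The 9 and 14 genes were 10 and 12 with upper-quartile scaling and unchanged with RLE scaling. With limma on log2(TPM + 1) of the deposited TPM 16 rose and 2 fell. There the median of all genes sat at 0.16 in place of 0.01. On TPM rescaled without mitochondrial genes 10 rose and 7 fell. Both TPM runs differ from the main run in the test and the added 1 as well as in scaling. What moved the counts was not tested.

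Against day 0, 25 were higher and 8 lower at day 12, with a background of 66.4% called, 34.7% higher and 31.7% lower. At least 2-fold, 14 were higher and 1 lower, beside 9.43% and 4.18%, and libraries lay apart in 25 and 8, beside 36.8% and 32.9%. The 14 again include Lgr5, Notum and Nkd1. The 8 lower genes were 2 on log2(TPM + 1) and 4 on TPM rescaled without mitochondrial genes. The comparisons share groups, so their counts are not independent of each other.

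**Figure D1:**
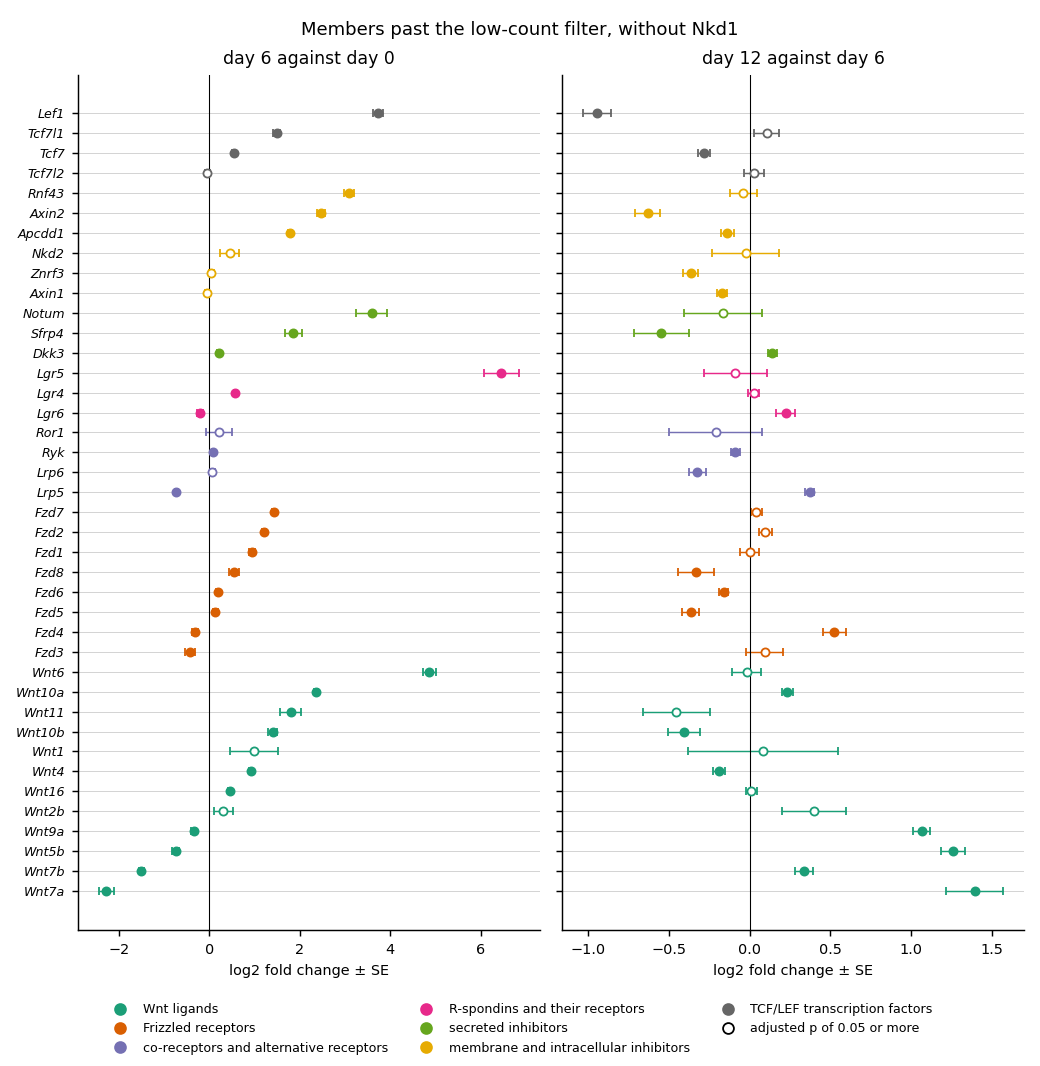
Log2 fold change ± SE (edgeR) of each gene past the low-count filter, for day 6 against day 0 and day 12 against day 6, on axes of different length. Colours mark roles and open circles genes with an adjusted p of 0.05 or more. Nkd1 is left out because day 0 held none of its counts. At day 6 Lgr5, Wnt6, Lef1 and Notum lie farthest to the right and Wnt7a farthest to the left, while at day 12 Wnt7a, Wnt5b and Wnt9a lie to the right and Lef1 to the left.

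Among ligands, Wnt10a and Wnt6 rose most by day 6, and Wnt7a and Wnt7b fell. Of the 12 ligand genes tested 6 rose, 4 fell and Wnt1 and Wnt2b were not called, beside 33.5% risen and 31.4% fallen among all genes, and counts by role below have the same background. Wnt10a, a ligand of skin, tooth and hair development that signals through beta-catenin, stood at 11, 10.7 and 10.7 CPM in the day 0 libraries, at 53.1, 56.7 and 56.1 at day 6 and at 65.2, 64.5 and 65.1 at day 12. The 3 groups do not overlap and each step was upward. The day 6 rise was 5.12-fold (log2 fold change 2.36 ± 0.039 SE, adjusted p = 2.3e-16) and the further step to day 12 was 1.17-fold (adjusted p = 5.13e-05).

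Wnt6, a ligand that promotes epithelial differentiation of kidney mesenchyme, had 0.239, 0.208 and 0.433 CPM at day 0, 8.73, 8.34 and 8.64 at day 6 and 8.93, 8.51 and 7.89 at day 12. It was low in untreated cells, with 13 to 30 counts in a library, and lay between 7.89 and 8.93 CPM in all 6 later libraries. Its rise by day 6 was 29.1-fold (log2 fold change 4.86 ± 0.15, adjusted p = 2.24e-13), and no change was called from day 6 to day 12 (log2 fold change −0.02 ± 0.09, adjusted p = 0.886).

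Wnt6 and Wnt10a are neighbours. In GENCODE M21 on GRCm38, Wnt6 lies on chromosome 1 from 74771892 to 74785322 and Wnt10a from 74791516 to 74804179, both on the plus strand, 6193 bases apart with no annotated gene between them. Within the set 3 more neighbouring ligand pairs were found, with partners on opposite strands. In each of them at least 1 partner had few or no counts, so they cannot show whether neighbours rise together. Wnt10b rose, while Wnt1, 11706 bases away on chromosome 15, had at most 12 counts in a library. It was not called (log2 fold change 0.99 ± 0.52, adjusted p = 0.112). Wnt9a fell, and Wnt3a, 16175 bases away on chromosome 11, had no counts. Wnt3 and Wnt9b, 24328 bases apart on the same chromosome, had at most 3 and 1 counts.

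Wnt10b, a relative of Wnt10a that holds back fat cell formation, read 2.33, 2.91 and 2.52 CPM at day 0, 7.11, 6.1 and 7.26 at day 6 and 4.76, 5.63 and 5.04 at day 12. It rose 2.64-fold (adjusted p = 1.24e-08) and then fell 1.32-fold (adjusted p = 0.00359), with no overlap between groups. On log2(TPM + 1) the second step was not called (adjusted p = 0.194). Wnt11, a ureteric bud ligand that acts mainly without beta-catenin, went from 0.358, 0.256 and 0.303 CPM to 1.12, 1.12 and 0.998, a rise of 3.49-fold (adjusted p = 5.81e-06). At day 12 its libraries held 0.607, 0.924 and 0.845 CPM, all below day 6, but the difference was not called (adjusted p = 0.0911).

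Wnt4, which turns mesenchyme into nephron epithelium, rose 1.88-fold by day 6, from between 35.0 and 37.9 CPM to between 67.5 and 69.1 (adjusted p = 6.05e-12). It then fell 1.14-fold to between 57.9 and 61.7 CPM (adjusted p = 0.000488), although on log2(TPM + 1) that second step was 0.02 and not called. Wnt16, a ligand with roles in bone and joints, was by TPM the most abundant ligand in all 3 groups. It rose 1.36-fold, from between 69.0 and 75.6 CPM to between 99.6 and 101, and showed no called change after that (adjusted p = 0.863). With limma on log2(TPM + 1), however, Wnt16 was called higher at day 12 than at day 6 (log2 fold change 0.20, adjusted p = 0.00218). In that run the median of all genes was 0.16. On TPM rescaled without mitochondrial genes the step of Wnt16 was not called. Wnt2b was not called at day 6 (adjusted p = 0.198) but was 1.64-fold higher at day 12 than at day 0 (adjusted p = 0.00577).

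The 4 ligand genes that fell by day 6 were all higher again at day 12. Wnt7a held 4.54, 4.41 and 3.3 CPM at day 0, 1.02, 0.661 and 0.861 at day 6 and 2.4, 2.1 and 2.14 at day 12. It fell 4.84-fold (log2 fold change −2.28 ± 0.17, adjusted p = 9.54e-09) and rose 2.63-fold (adjusted p = 1.51e-05), and its day 12 libraries lie between the other groups. Wnt7b, needed for the orientation of cell division in the kidney medulla, held 21.3, 21.2 and 21.0 CPM, then 7.3, 7.87 and 7.23, then 9.34, 9.08 and 9.91. Its fall was 2.83-fold (adjusted p = 1.72e-12) and its later rise 1.26-fold (adjusted p = 0.000226), so that it remained 2.25-fold below day 0 (adjusted p = 3.28e-11).

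Wnt9a and Wnt5b ended above their starting level. Wnt9a, a ligand of joint and liver development, held 55.6, 52.5 and 60.1 CPM at day 0, 44.3, 42.0 and 46.1 at day 6 and 92.3, 86.7 and 98.2 at day 12. It fell 1.27-fold (adjusted p = 3.83e-05) and then rose 2.09-fold (log2 fold change 1.07 ± 0.053, adjusted p = 1.04e-09). Wnt5b, a ligand mostly of the beta-catenin-independent branch, held 14.0, 12.8 and 12.1, then 7.59, 7.65 and 8.14, then 17.6, 17.8 and 20.7 CPM. Its steps were a fall of 1.67-fold (adjusted p = 4.12e-07) and a rise of 2.39-fold (adjusted p = 5.47e-09). Against day 0 the day 12 level was 1.65-fold higher for Wnt9a (adjusted p = 9.12e-09) and 1.44-fold higher for Wnt5b (adjusted p = 8.09e-06).

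**Figure D2:**
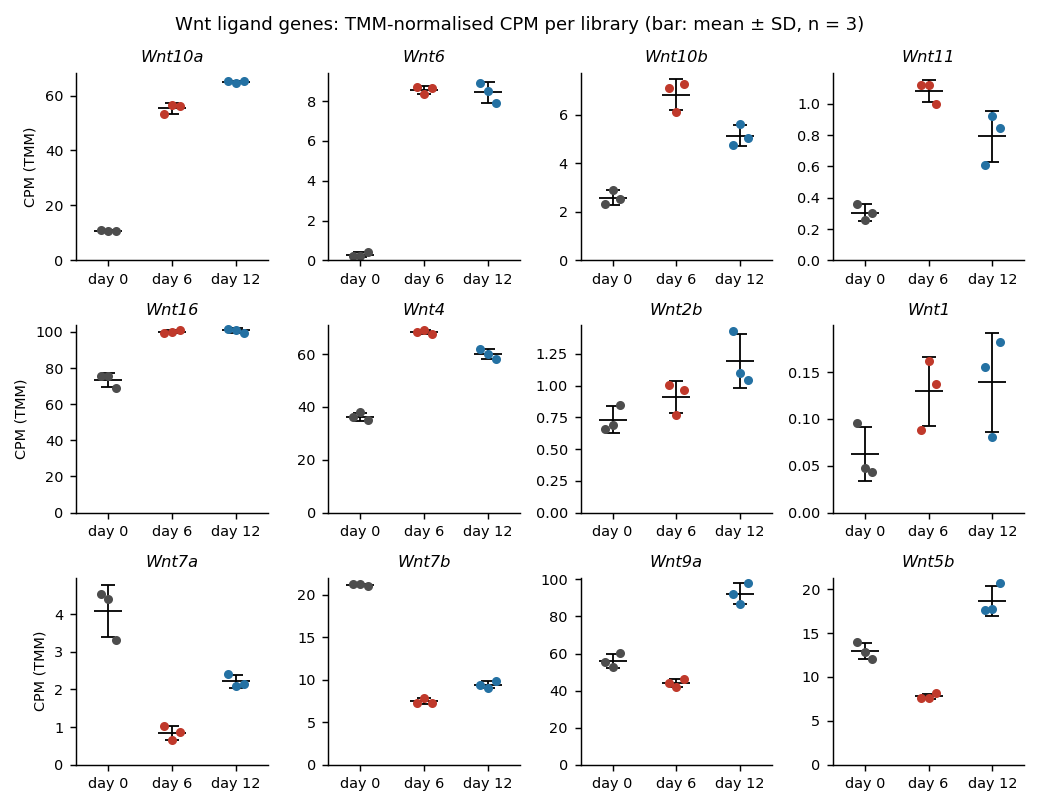
TMM-normalised CPM of the 12 ligand genes tested, on linear axes from 0; points are libraries and bars the mean ± SD of 3. Wnt10a and Wnt6 rise at day 6 and stay up, while Wnt7a, Wnt7b, Wnt9a and Wnt5b dip at day 6, with Wnt9a and Wnt5b highest at day 12.

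A pair of sequence motifs were looked for in the RefSeq promoter windows (GRCm38.p6, 250 bases before to 50 after a start), on both strands: CTTTGAT, a form of the TCF/LEF site, and GCGTGAC, a core of the site bound by the paired domain of PAX2, PAX5 and PAX8. Windows were given for 41 of the 63 genes, 50 windows in all. Wnt10a, Lgr5, Notum, Apcdd1 and Fzd2 were among the genes without a window. CTTTGAT or its reverse complement stood in 2 of these, 4.0%, beside 3.73% of all 32851 windows, and GCGTGAC likewise in 2, 4.0%, beside 2.09%. The TCF/LEF letters were found before 1 start of Wnt11, at position −51 from it, but not at its other start. They were also found before 1 of 3 starts of Wnt5b, at −71. The paired-domain letters were found before Wnt9a, at −111, and before another start of Wnt5b, at −188. Neither motif was in the window of Axin2, the gene most used as a readout of beta-catenin. A match is a description of letters, not a binding site. The 250 bases before the start follow for these 4 genes, because they hold a motif or are that readout, with motif letters in capitals. They are Wnt9a at chr11:59306680-59306929 (plus strand), Wnt5b at chr6:119544348-119544597 (minus strand) and, for the other start, chr6:119449387-119449636 (minus strand), Wnt11 at chr7:98834862-98835111 (plus strand) and Axin2 at chr11:108920099-108920348 (plus strand), each read 5′ to 3′ on the strand of the gene.
Wnt9a: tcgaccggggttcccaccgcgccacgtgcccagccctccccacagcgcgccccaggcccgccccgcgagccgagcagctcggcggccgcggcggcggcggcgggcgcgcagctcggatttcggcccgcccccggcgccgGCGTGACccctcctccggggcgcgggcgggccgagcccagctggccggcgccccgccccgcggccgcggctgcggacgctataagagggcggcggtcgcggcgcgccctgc
Wnt5b with paired-domain letters: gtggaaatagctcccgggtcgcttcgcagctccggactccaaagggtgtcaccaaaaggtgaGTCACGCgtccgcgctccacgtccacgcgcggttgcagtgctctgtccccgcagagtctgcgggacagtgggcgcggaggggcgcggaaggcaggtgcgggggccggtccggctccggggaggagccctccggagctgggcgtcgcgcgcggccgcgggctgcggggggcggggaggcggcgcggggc
Wnt5b with TCF/LEF letters: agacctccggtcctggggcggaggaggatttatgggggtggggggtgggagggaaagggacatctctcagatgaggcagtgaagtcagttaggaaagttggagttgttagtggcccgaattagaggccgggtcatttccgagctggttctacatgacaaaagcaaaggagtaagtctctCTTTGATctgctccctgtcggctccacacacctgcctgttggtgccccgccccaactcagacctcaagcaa
Wnt11: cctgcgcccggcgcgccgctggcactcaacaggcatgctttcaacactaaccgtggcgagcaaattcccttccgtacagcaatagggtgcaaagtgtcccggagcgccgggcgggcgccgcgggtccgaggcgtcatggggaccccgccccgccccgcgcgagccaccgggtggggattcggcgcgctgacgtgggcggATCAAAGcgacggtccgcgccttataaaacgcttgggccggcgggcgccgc
Axin2: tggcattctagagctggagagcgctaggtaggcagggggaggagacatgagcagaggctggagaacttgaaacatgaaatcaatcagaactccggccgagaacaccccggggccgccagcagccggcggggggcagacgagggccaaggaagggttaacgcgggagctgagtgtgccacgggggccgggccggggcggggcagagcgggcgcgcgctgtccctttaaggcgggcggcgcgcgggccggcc

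Of 10 Frizzled genes 8 were tested, and by day 6 6 rose and 2 fell. Fzd7, a receptor for beta-catenin signalling in epithelial progenitors, held 39.5, 39.5 and 37.8 CPM at day 0, 107, 105 and 103 at day 6 and 112, 103 and 108 at day 12. It rose 2.69-fold (log2 fold change 1.43 ± 0.037, adjusted p = 3.54e-14) and was not called between day 6 and day 12 (adjusted p = 0.369), where the libraries overlap. Fzd2, a close relative, went from 11.8, 11.4 and 12.1 CPM to 27.9, 26.4 and 28.0, and then to 30.3, 28.8 and 28.8. Its rise of 2.33-fold (adjusted p = 2.72e-12) was followed by a step that was not called (adjusted p = 0.0766). Fzd1, the third member of the same subfamily, rose 1.92-fold (adjusted p = 1.64e-09) and was level after that (log2 fold change 0.00 ± 0.057, adjusted p = 0.996). With limma on log2(TPM + 1) Fzd7 and Fzd2 were called higher at day 12 than at day 6 (adjusted p = 0.00287 and 0.00225). Both calls were also made on TPM rescaled without mitochondrial genes (adjusted p = 0.0388 and 0.031).

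Other Frizzled genes moved less. Fzd6, by TPM the most abundant at every day, rose 1.14-fold by day 6, from between 129 and 130.4 to between 146 and 149.98 CPM (adjusted p = 4.76e-05). It fell 1.12-fold by day 12 (adjusted p = 0.00045), a step of 0.03 and not called on log2(TPM + 1). Fzd4, the norrin receptor, fell 1.24-fold (adjusted p = 0.00132; 0.0542 on log2(TPM + 1)) and rose 1.44-fold (adjusted p = 2.69e-05). Fzd8 rose with a log2 fold change of 0.55 ± 0.11 and fell by 0.33 (adjusted p = 0.0216), a fall that was lost without day 6 replicate B or C or day 12 replicate C (adjusted p = 0.0714, 0.0673 and 0.0942) and on log2(TPM + 1) (0.422). Fzd5 rose with a log2 fold change of 0.14 ± 0.05 at day 6 and fell by 0.37 at day 12 (adjusted p = 3.29e-05; 0.201 on log2(TPM + 1)). That rise was lost without day 0 replicate A or C or day 6 replicate A or B (adjusted p = 0.0641, 0.0533, 0.0874 and 0.143), in the DESeq2 test (0.1) and on log2(TPM + 1) (0.108). Fzd3, which acts in axon guidance and planar polarity, fell by 0.42 at day 6 (adjusted p = 0.00394; 0.103 on log2(TPM + 1)).

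Co-receptors went apart. Lrp5 held 187, 189.7 and 195 CPM at day 0, 114, 116 and 116 at day 6 and 150.2, 149 and 148 at day 12. It fell 1.65-fold (log2 fold change −0.72 ± 0.028, adjusted p = 4.02e-12) and rose 1.29-fold (adjusted p = 8.27e-08), with no overlap between groups. Lrp6, its close relative, was not called at day 6 (log2 fold change 0.07 ± 0.052, adjusted p = 0.273) and fell 1.25-fold by day 12 (adjusted p = 0.000146). Day 12 replicate B, at 117 CPM, was the lowest of that group beside 141 and 135, and on log2(TPM + 1) the fall was −0.02 and not called. Ryk, a receptor of the beta-catenin-independent branch, differed by 0.08 and −0.09 on the log2 scale. The first call (adjusted p = 0.0205) was lost without any 1 of day 0 replicates B and C and day 6 replicates A and B (0.0565 to 0.166), the second (0.0166) when either day 6 replicate A (0.0612) or B (0.0736) was left out, and on log2(TPM + 1) the second was 0.12 (adjusted p = 0.0108). Ror1 reached at most 31 counts in a library and was called in none of the 3 comparisons (adjusted p = 0.531, 0.587 and 0.989).

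LGR4, LGR5 and LGR6 bind R-spondins and so shield Frizzled from removal, and Lgr5 also marks stem cells of gut and other epithelia. Lgr5 counts were 2, 1 and 1 at day 0, 138, 118 and 101 at day 6 and 149, 87 and 119 at day 12. The gene was all but absent in untreated cells and present in each later library, though low, at 1.17 to 2.04 CPM. The ratio of summed counts was 96.3 at day 6 (95% interval 37.3 to 355, counting error only) and 90.1 at day 12 (34.9 to 333). Both differences from day 0 passed the threshold (adjusted p = 8.37e-10 and 1.35e-09), and the change from day 6 to day 12 was not called (adjusted p = 0.748). Lgr4, far more abundant, rose 1.49-fold by day 6, from between 84.2 and 88.4 to between 123 and 132 CPM (adjusted p = 6.06e-10). Lgr4 was not called after that, but with limma on log2(TPM + 1) it was called higher at day 12 than at day 6 (adjusted p = 0.00151). On TPM rescaled without mitochondrial genes that step of Lgr4 was not called. Lgr6 fell by 0.21 and rose by 0.22 on the log2 scale (adjusted p = 0.00778 and 0.00808), and the fall was not called on log2(TPM + 1) (0.102).

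Of the 7 membrane and intracellular inhibitors 4 rose by day 6, Axin2, Rnf43, Apcdd1 and Nkd1, none fell, and Axin1, Znrf3 and Nkd2 were not called. Axin2, a scaffold of the destruction complex, held 2.26, 2.29 and 2.13 CPM at day 0, 12.8, 12.6 and 11.7 at day 6 and 8.9, 7.13 and 7.87 at day 12. It rose 5.55-fold (log2 fold change 2.47 ± 0.09, adjusted p = 1.97e-12) and fell 1.55-fold (adjusted p = 1.1e-05), remaining 3.58-fold above day 0 (adjusted p = 1.25e-10). Its paralog Axin1, which is not an induced gene, was not called at day 6 (log2 fold change −0.06 ± 0.031, adjusted p = 0.134), though without day 6 replicate B it was (−0.10, adjusted p = 0.0166).

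Rnf43, a membrane ubiquitin ligase that removes Frizzled from the surface, went from 1.22, 1.23 and 1.43 CPM to 11.2, 10.7 and 11.4, and was at 11.5, 11.7 and 9.08 at day 12. The rise was 8.58-fold (log2 fold change 3.1 ± 0.11, adjusted p = 1.53e-12), with no called change after it (adjusted p = 0.736). Znrf3, the related ligase, stood at 31.1 to 34.1 CPM at day 0 and 32.4 to 35.5 at day 6. It was not called at day 6 (adjusted p = 0.361) and fell 1.29-fold at day 12 (adjusted p = 1.86e-05), to between 25.5 and 27.2 CPM. On log2(TPM + 1) that fall was not called (adjusted p = 0.155).

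Apcdd1, a membrane-bound Wnt inhibitor, held 9.25, 9.72 and 9.27 CPM at day 0, 31.4, 32.5 and 33.0 at day 6 and 29.8, 29.3 and 28.9 at day 12. It rose 3.43-fold (log2 fold change 1.78 ± 0.043, adjusted p = 1.81e-14) and fell 1.1-fold (adjusted p = 0.01), a step that was lost with upper-quartile scaling (adjusted p = 0.0539) and whose sign turned on log2(TPM + 1), at 0.02. Notum, an enzyme that removes the lipid from Wnt proteins, held 0.0836, 0.128 and 0.0288 CPM, then 1.21, 0.823 and 0.895, then 0.918, 0.817 and 0.878. It rose 12.1-fold (log2 fold change 3.6 ± 0.34, adjusted p = 1.93e-07) and was not called later (adjusted p = 0.617). Nkd1, a Dishevelled antagonist, had no counts at day 0, 3, 10 and 0 counts at day 6 and 11, 11 and 12 at day 12. Set against a floor of 3 counts over the day 0 group, the day 12 level was at least 11.5-fold higher (adjusted p = 0.000779), and the lower 95% limit of the ratio of counts, which also covers counting error at day 12, was 8.86. Its call at day 6 (adjusted p = 0.0123) rests on day 6 replicate B, without which the adjusted p was 0.0835 there and 0.0241 for day 12 against day 6, in place of 0.134. Nkd2, its relative, was called in none of the comparisons (adjusted p = 0.0773, 0.938 and 0.0907), though without day 0 replicate C it was called higher at day 6 and at day 12 than at day 0 (0.0122 and 0.0147), and without day 12 replicate A at day 12 (0.0498).

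Secreted antagonists that passed the filter were Dkk3, Sfrp4 and Notum, and all rose by day 6. Sfrp4, a decoy that binds Wnt proteins, held 0.43, 0.495 and 0.418 CPM at day 0, 1.6, 1.44 and 1.86 at day 6 and 1.15, 1.23 and 0.945 at day 12. It rose 3.64-fold (adjusted p = 4.55e-07). The fall at day 12 (adjusted p = 0.0174) was lost without day 6 replicate C (0.0751), without day 12 replicate C (0.0702) and on log2(TPM + 1) (0.668). Dkk3, a divergent Dickkopf whose effect on Wnt receptors is disputed, was at 175 to 184 CPM, 203 to 209 and 224 to 231. It rose by 0.21 ± 0.03 and 0.14 ± 0.03 on the log2 scale at the 2 steps (adjusted p = 2.39e-05 and 0.00154).

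**Figure D3:**
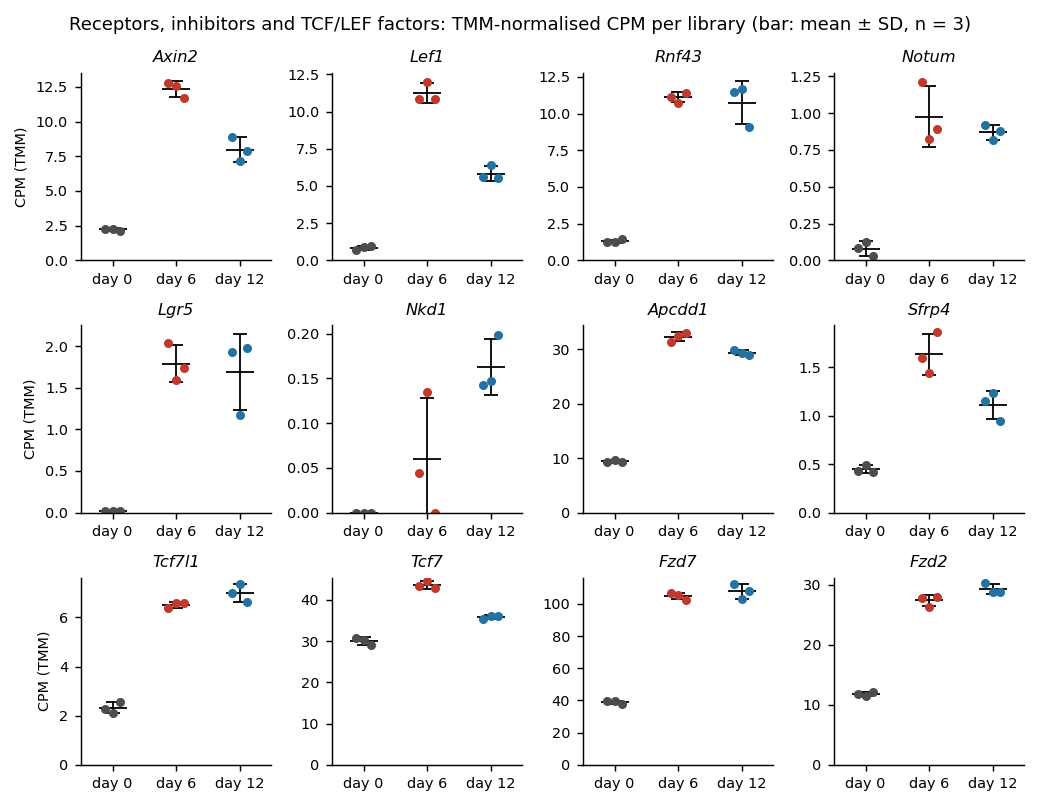
TMM-normalised CPM of 12 receptor, inhibitor and TCF/LEF genes, on linear axes from 0; points are libraries and bars the mean ± SD of 3. Every gene shown is higher in all day 6 libraries than in the day 0 libraries except Nkd1, where 1 day 6 library had no counts, and Axin2, Lef1, Sfrp4, Tcf7 and Apcdd1 are lower at day 12 than at day 6. Genes of these roles that fell by day 6, such as Lrp5 and Fzd3, or were not called, such as Znrf3 and Tcf7l2, are not shown.

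TCF/LEF factors carry beta-catenin to DNA. Lef1, itself a known beta-catenin target, held 0.705, 0.879 and 0.981 CPM at day 0, 10.9, 12.0 and 10.8 at day 6 and 5.58, 6.42 and 5.5 at day 12. The rise was 13.3-fold (log2 fold change 3.73 ± 0.11, adjusted p = 2.28e-13), and at day 12 Lef1 fell 1.93-fold (adjusted p = 6.19e-07), to a level between the other groups. Tcf7l1, which mostly represses targets in stem cells, went from 2.28, 2.11 and 2.55 CPM to 6.37, 6.57 and 6.58 and then to 6.98, 7.35 and 6.65. It rose 2.81-fold (adjusted p = 5.3e-10), with no later call (adjusted p = 0.284). With limma on log2(TPM + 1), however, Tcf7l1 was called higher at day 12 than at day 6 (adjusted p = 0.00818). On TPM rescaled without mitochondrial genes that step of Tcf7l1 was not called. Tcf7 rose 1.45-fold (adjusted p = 2.96e-09) and fell 1.22-fold (adjusted p = 1.4e-05), a fall that was not called on log2(TPM + 1) (adjusted p = 0.303). Tcf7l2, the main factor of many adult epithelia, was called in none of the 3 comparisons (adjusted p = 0.586, 0.769 and 0.845).

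Shares of a family's TPM, which correct for gene length and do not depend on the scaling between libraries, show how its make-up shifted. All shares are the mean ± SD of n = 3 libraries, in the order of days. Wnt16 made up 51.9% ± 1.5 of ligand TPM in untreated cells, then 50.3% ± 0.36 and 43.2% ± 0.81. Wnt10a went from 4.74% ± 0.08 to 17.1% ± 0.49 and 17.4% ± 0.12, passing Wnt9a, at 17.7% ± 1.6, 9.83% ± 0.42 and 17.8% ± 0.94. At day 0 Wnt16, Wnt9a, Wnt4, Wnt7b and Wnt5b held larger shares than Wnt10a, at day 6 Wnt16 alone did, and at day 12 Wnt10a and Wnt9a do not differ beyond their spread. Fzd6 held 60.6% ± 0.43, 45.7% ± 0.39 and 42.1% ± 0.71 of Frizzled TPM, and Fzd7 16.2% ± 0.47, 28.7% ± 0.22 and 30.9% ± 0.32. Within the TCF/LEF family Lef1 made up 1.22% ± 0.16, 10.8% ± 1.1 and 6.3% ± 0.32, and Tcf7l2 36.9% ± 2.7, 24.8% ± 1.7 and 28.8% ± 2. Tcf7 kept the largest share, at 57.6% ± 3, 57.3% ± 0.81 and 55.8% ± 2.2. No test was run on the shares, which are given as a description.

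**Figure D4:**
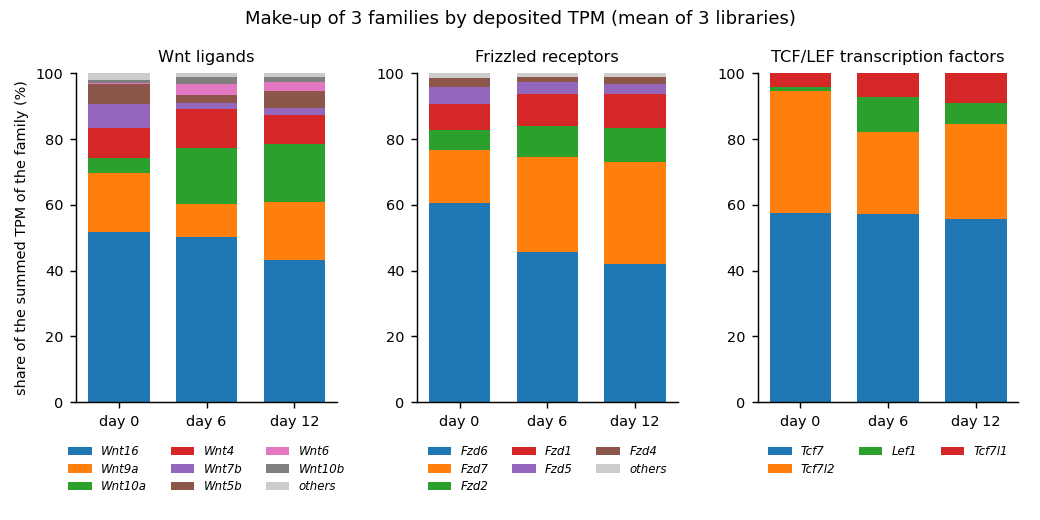
Share of the summed deposited TPM of Wnt ligand, Frizzled and TCF/LEF genes held by each gene, as the mean of 3 libraries per day; bars add up to 100%. Wnt10a and Fzd7 widen from day 0 to day 6, Fzd6 and Tcf7l2 narrow, and Lef1 is widest at day 6.

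The rest of the pathway was read from 4 further lists, whose counts stand beside 33.5% of all genes risen and 31.4% fallen at day 6, and 22.6% and 22.7% from day 6 to day 12. In the list of destruction complex, Dishevelled and nuclear partners, 18 of 34 genes tested rose and 7 fell at day 6, with a median of 0.12, and 3 rose and 15 fell at day 12 against day 6, with a median of −0.05. Ctnnb1, the gene of beta-catenin, was at 230 to 242 CPM at day 0, 609 to 644 at day 6 and 609 to 639.8 at day 12. That was a 2.63-fold rise (log2 fold change 1.4 ± 0.035, adjusted p = 2.54e-14) that neither grew nor shrank by a called amount (adjusted p = 0.98). Its exons share bases with Mir7090 on the same strand and Ulk4 on the other, so their reads may be mixed. Bcl9l, a coactivator of beta-catenin, rose 2.3-fold (adjusted p = 1.37e-11) and fell 1.29-fold (adjusted p = 3.03e-05), and its exons share bases with Gm47205 and Cxcr5 on the other strand. Frat2, a GSK3-binding protein, fell 2.51-fold (adjusted p = 6.87e-11) and rose 1.58-fold (adjusted p = 1.89e-06).

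Among secretion and extracellular modulators 11 of 14 rose and 3 fell at day 6 (median 0.68), and 7 rose and 2 fell at day 12 against day 6 (median 0.14). Igfbp4, an IGF-binding protein that also blocks LRP6, rose from between 0.108 and 0.176 CPM to between 11.3 and 12.8 at day 6 (84.6-fold, adjusted p = 2.67e-15). Cthrc1, a secreted Wnt cofactor of the planar polarity branch, rose 7.69-fold (adjusted p = 3.1e-07), and Gpc4, a cell-surface proteoglycan, 2.31-fold (adjusted p = 7.47e-09). Cthrc1, too, was under 0.143 CPM in every day 0 library and passed the filter through later days only. Igfbp4 also needed the later days to pass, since its lowest day 0 library, at 0.108 CPM, was under that cutoff. Cthrc1 and Gpc4 rose again at day 12, by 2.07-fold (adjusted p = 0.000541) and 1.74-fold (adjusted p = 9.91e-07). Of the non-canonical components 10 of 24 rose and 10 fell at day 6 (median −0.02), and 7 rose and 10 fell at day 12 against day 6 (median −0.09), beside 33.5% and 31.4%, then 22.6% and 22.7%, of all genes. The genes of the list with the largest changes by the naming rule were Nfatc4, a calcium-regulated transcription factor, Daam2, a formin that binds Dishevelled, and Prickle2, a planar polarity protein. They were 8.34-fold, 3.34-fold and 2.25-fold higher at day 12 than at day 0 (adjusted p = 2.68e-12, 1.13e-08 and 1.01e-11).

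Of further reported beta-catenin targets 13 of 24 rose and 10 fell at day 6 (median 0.39), and 9 rose and 6 fell at day 12 against day 6 (median 0.06). The background is again 33.5% and 31.4%, then 22.6% and 22.7%, of all genes. Fgf9, a growth factor, rose 12.5-fold (adjusted p = 2.41e-07), though no day 0 library reached 0.143 CPM and it passed the filter through later days only, whereas Fgf18, from the same family, fell 8.57-fold (adjusted p = 2.58e-11) and then rose 3.8-fold (adjusted p = 1.1e-07). L1cam, an adhesion molecule, fell 39-fold and rose 13.6-fold (adjusted p = 2.78e-18 and 2.46e-15). L1cam shares exon bases with Arhgap4 on the same strand. Of the 39 genes on that list 15 did not pass the filter.

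Markers of other cell types gave these values beside the changes above. Counts of markers stand beside 33.5% of all genes risen and 31.4% fallen at day 6, and 22.6% and 22.7% from day 6 to day 12. Of 12 stromal and fibroblast markers 8 were tested, and 5 rose and 2 fell at day 6. Their summed level was 37.2 to 39.6 CPM at day 0, 38.8 to 39.4 at day 6 and 36.6 to 38.9 at day 12, so the groups overlap. Much of that sum was Foxd1 and Cspg4 (means of 9.33, 16 and 9.48 CPM), so it says little about low markers. Col3a1 rose from a mean of 0.00879 to 0.756 CPM at day 6 (adjusted p = 1.51e-08, edgeR) and was at 0.589 at day 12. It was all but absent at day 0. Tcf21 and Thy1 were at 0 in every library and Pdgfra at 0 at day 0, while mean levels at day 0, 6 and 12 were 0.0762, 2.45 and 1.52 CPM for Pdgfrb, 4.92, 0.442 and 5.08 for Dcn and 18.7, 12.1 and 12.3 for Foxd1, so that single markers went both ways. The 10 endothelial and immune markers summed to 16.5 to 18.9, 15.2 to 16.8 and 13.6 to 15.2 CPM, most of it Cd68, with Cd3e at 0 throughout, and 1 of the 4 tested rose and 1 fell at day 6. The 14 markers of loop, distal tubule, collecting duct and podocytes summed to 93.1 to 96.6, 75.6 to 80.9 and 83.2 to 83.6 CPM, with 2 of 5 tested risen and 2 fallen at day 6 and Foxi1 at 0 throughout. The 14 proximal tubule markers summed to 558.5 to 657.8, 424 to 461 and 464 to 518 CPM. Of the 6 tested 1 rose and 5 fell at day 6, and 3 rose and none fell at day 12 against day 6. Lrp2, the megalin gene and the largest part of the day 0 sum, went from a mean of 391 to 58.7 and 71.8 CPM. Aqp1, in contrast, went from 119 to 324 and 328. What part these cell states have in the Wnt values was not tested. In bulk RNA, fewer cells of a type and less RNA per cell cannot be told apart.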

How the data were processed

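The values analysed were the gene counts and TPM, an abundance corrected for gene length, that the authors deposited for 9 poly(A) RNA libraries. RSEM 1.3.3, STAR 2.7.8a, FastQC 0.11.8 and cutadapt 2.3 are listed with GRCm38, per the submitters' processing notes. For roles, annotation release, strand setting and filters, nothing is given in the sources used here. The deposited counts were whole numbers and were tested as deposited. Of the table's 55491 entries 4 are transgene entries, 0.00204% to 0.00284% of counts, and were left out.

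Genes were filtered with filterByExpr (16353 kept), scaled by TMM and fitted in 1 edgeR 4.0.16 quasi-likelihood model (R 4.3.3) of 9 libraries with 6 residual degrees of freedom. P-values were Benjamini-Hochberg adjusted over all genes tested, and 0.05 was the threshold. SE values are those implied by the test statistic. The code was tested on simulated data. Levels between genes were compared by TPM, except that sums over marker lists add CPM, which is not corrected for gene length. Alternatives were RLE and upper-quartile scaling, no filter, DESeq2 1.42.0, limma 3.58.1 on log2(TPM + 1), a replicate block, each library left out, and, added after seeing the data, TPM rescaled without mitochondrial genes.

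The genes and lists were chosen with earlier results of these data known. Genes that changed at least 2-fold in a comparison, Wnt10a and Fzd7 are given by library, and up to 3 called genes per further list are named by largest change. Positions come from GENCODE M21, promoters from RefSeq (GRCm38.p6).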

Additional observations from a re-analysis of the deposited data

How the results depend on the processing

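The counts of genes risen at day 6 and at day 12 against day 0 stayed within 1.5 times of the reported ones in every alternative run. On log2(TPM + 1), however, 5 genes in place of 8 fell at day 6, 16 in place of 9 rose and 2 in place of 14 fell from day 6 to day 12, and 2 in place of 8 were lower at day 12 than at day 0. With TPM rescaled without mitochondrial genes, an alternative chosen after seeing the data, the last 2 counts were 7 and 4. The share of all called genes that were higher at day 12 than at day 6 was 50% with TMM, 60.5% with upper-quartile scaling, 90.1% on TPM and 73.4% on rescaled TPM. Against day 0 it was 52.3%, 56.5%, 81.3% and 66.5%. The cause was not tested.

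Among genes given by library, signs turned only for small steps from day 6 to day 12, of which Apcdd1 alone had been called. Of the other genes, the called falls of Fzd6, Wnt4, Axin1 and Ryk from day 6 to day 12, and the lower day 12 than day 0 levels of Fzd5, Lrp6 and Axin1, also changed sign on log2(TPM + 1). On log2(TPM + 1) the step was 0.0213 for Apcdd1, 0.081 for Lgr5, 0.0189 for Notum, 0.00972 for Rnf43 and 0.154 for Wnt6. On rescaled TPM it was 0.0357 for Lgr5 and 0.0454 for Wnt6, and with upper-quartile scaling 0.0198 for Wnt6. With 1 library left out it ranged from −0.208 to 0.123 for Lgr5, −0.276 to 0.0221 for Notum, −0.103 to 0.0636 for Rnf43 and −0.0607 to 0.0261 for Wnt6.

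Leaving out each library gave 22 to 25 genes risen and 8 to 9 fallen at day 6, 9 to 10 and 12 to 14 from day 6 to day 12, and 25 to 27 and 7 to 8 at day 12 against day 0. Deviations of same-letter libraries correlated between −0.104 and 0.143, beside −0.168 to 0.161 for libraries of different letters. These values show no pairing by the letters A, B and C, but with 3 libraries per group they cannot settle the question. With the letter as a replicate block 10485, 7221 and 10743 genes were called in place of 10605, 7408 and 10861, and the counts of Wnt genes were the same. Low-count genes such as Nkd1, Wnt1 and Lgr5 at day 0 are limited by depth.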

Other observations

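Porcn, the enzyme that adds the lipid to Wnt proteins, rose by day 6 from 4.26 ± 0.41 to 8.66 ± 0.42 CPM (SD, n = 3; adjusted p = 2.03e-07, edgeR) and fell to 5.22 ± 0.71 at day 12 (adjusted p = 2.15e-05). Wls, which carries lipid-modified Wnt proteins to the cell surface, moved far less, from 533 ± 11.4 to 572 ± 2.06 and 631 ± 12.9 CPM. Gpc6, a cell-surface proteoglycan, followed the course of Porcn, at 35.6 ± 1.18, 60.7 ± 2.23 and 39.9 ± 2.67 CPM (adjusted p = 9.35e-10 and 1.03e-07 for the 2 steps). These genes were chosen after their values were seen.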
